A study of Mus musculus with 6 samples.

Results

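The genes described here are 10 members of the NF-kB pathway and its targets, chosen by name. They are the subunit genes Nfkb1, Nfkb2, Rela and Relb, the inhibitor gene Nfkbia, the nuclear regulator genes Nfkbiz and Bcl3, the feedback gene Tnfaip3 and the target genes Tnfaip2 and Icam1. All 10 were found among the 55421 genes listed for each library, and all 10 passed the low-count filter, which left 15209 genes for testing. RNA was sequenced from mouse corneas at 20 weeks of age, in 3 libraries from wildtype animals (W1 to W3) and 3 from animals heterozygous for a mutant Pax6 (M1 to M3). Pax6 is a transcription factor of eye development, and loss of a copy causes aniridia and its corneal disease, the keratopathy named in the title of the series. The sources used here do not give the mutant allele, the strain or any pooling of animals. The design calls the 3 libraries of a genotype biological replicates. The comparison asked how transcript levels differed between mutant and wildtype corneas.

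NF-kB is a family of dimeric transcription factors built from 5 subunits, RelA, RelB, c-Rel and the products of Nfkb1 and Nfkb2. In resting cells the dimers are held in the cytoplasm by inhibitors such as IkB-alpha, the product of Nfkbia. Signals from tumour necrosis factor, interleukin-1 and Toll-like receptors activate a kinase complex that marks the inhibitor for destruction, and the freed dimers bind kappaB sites in DNA. Several of the genes they switch on encode parts of the pathway itself, so Nfkbia, Tnfaip3, Nfkb1 and Nfkb2 are both components and targets. In the ocular surface the pathway is known for its role in inflammation and in the response of the epithelium to injury and microbes.

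Promoter sequences show where such kappaB letters lie in these genes, and they are given for members with a match near the start and for Icam1. RefSeq promoters on GRCm38.p6 were found for 7 of the 10 members, in 10 windows because Nfkb2 and Tnfaip3 have several starts. The 250 bases before each start were searched on both strands for the kappaB consensus, a degenerate motif of 10 letters. It was present in at least 1 window of 4 members, Nfkb2, Nfkbia, Tnfaip3 and Tnfaip2, and in 6 of the 10 windows. Among all 32851 promoter windows of this length, 7.25% held a match. Below, capitals mark the letters that match the consensus on either strand, and each sequence runs 5′ to 3′ on the strand of its gene. The stretches are chr19:46304689-46304718 (plus strand) for Nfkb2, chr12:55492648-55492777 (minus strand) for Nfkbia, chr10:19015411-19015540 (minus strand) for Tnfaip3, chr12:111442627-111442656 (plus strand) for Tnfaip2 and chr9:21015810-21015939 (plus strand) for Icam1.
Nfkb2: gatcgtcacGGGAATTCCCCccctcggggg
Nfkbia: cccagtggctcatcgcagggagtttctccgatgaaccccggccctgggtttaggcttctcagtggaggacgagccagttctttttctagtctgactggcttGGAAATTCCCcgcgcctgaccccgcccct
Tnfaip3: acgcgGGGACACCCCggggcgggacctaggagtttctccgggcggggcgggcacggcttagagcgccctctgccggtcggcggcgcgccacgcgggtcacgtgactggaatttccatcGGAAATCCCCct
Tnfaip2: gactattttaGGAGGGCCCCtccagggtcg
Icam1: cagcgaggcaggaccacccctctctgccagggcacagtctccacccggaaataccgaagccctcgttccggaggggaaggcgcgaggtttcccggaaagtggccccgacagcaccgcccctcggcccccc
The capitals of Nfkb2 hold a pair of overlapping matches, and a further match, GGGGCTTTCC, lies 11 to 2 bases before the same start. The match of Nfkbia lies 29 to 20 bases before its start. Tnfaip3 has a match 125 to 116 bases and another 12 to 3 bases before its start, and that of Tnfaip2 lies 24 to 15 bases before. In the window of Icam1 no full match to the consensus was found. The letters tggaaattcc, which lie in that window upstream of the stretch shown, miss the consensus by their first letter. A site that departs from the consensus is not found by this search, so the result does not show that Icam1 lacks a kappaB site. All these distances are from the RefSeq start. The stretches of Nfkb2, Tnfaip3 and Tnfaip2 lie inside the GENCODE spans of these genes, so some annotated transcripts begin before them. Those of Nfkbia and Icam1 lie outside the spans.

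Tnfaip2 and Icam1 were higher in mutant corneas, while the subunit and inhibitor genes did not pass edgeR's test at its main settings with all libraries in. Of the 10 members 2, Tnfaip2 and Icam1, rose at an adjusted p of 0.05 (edgeR's quasi-likelihood F test, adjusted over all genes after Benjamini and Hochberg; adjusted p-values below marked edgeR are from it), where 5.59% of all tested genes were called higher. No member fell, where 4.46% of all genes were called lower, and DESeq2 and limma-voom also called 0 lower. At an unadjusted p of 0.05, 6 members were higher and 0 lower (edgeR). Such p-values were common over all genes. Bcl3, with an unadjusted p of 0.022 (edgeR), ranked 2676 of the 15209 tested genes. The receptor gene Tlr1, at 0.039, ranked 3295, and Nfkbiz, at 0.055, ranked 3778 (both edgeR). The number of all genes under 0.05, in either direction, lies between these ranks. Its split by direction was not counted, so the 6 are given as a description. The mutant libraries all lay above the wildtype libraries in 5 members, Nfkb1, Relb, Nfkbia, Tnfaip2 and Icam1, against 17.1% of all genes. The median log2 fold change (mutant minus wildtype) of the members was 0.79, and that of all tested genes 0.0095. The log2 fold change was above 0 for 9 members and below 0 for Rela. Libraries held 16858005 to 21846406 counts in genes, and values below are CPM, the share of a library's counts on the usual per-million scale after composition scaling.

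**Figure D1:**
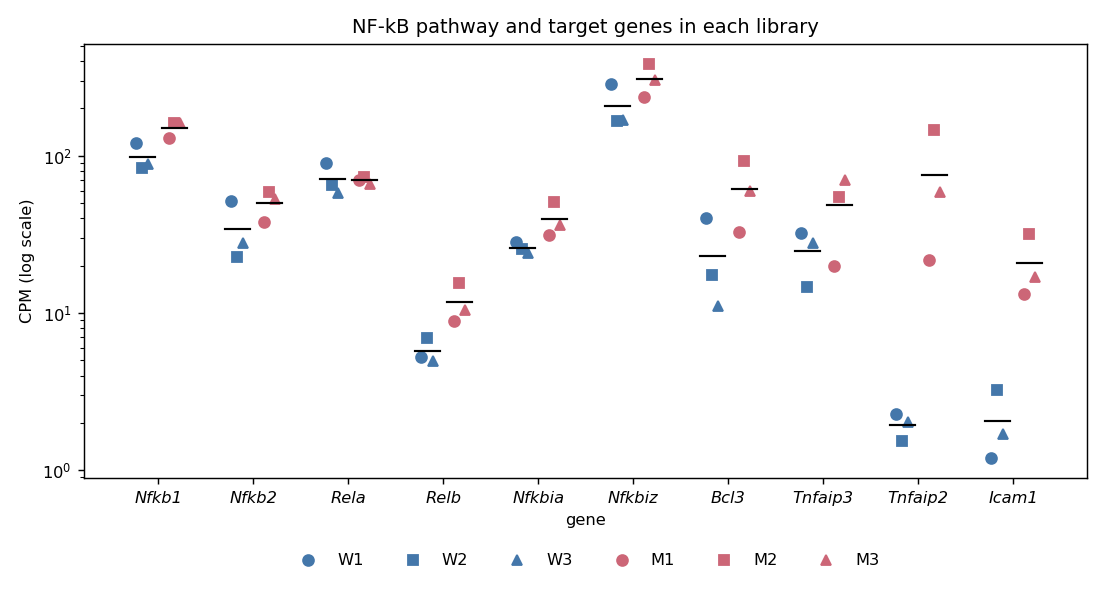
CPM (log scale) of each of the 10 genes in the 3 wildtype (blue) and 3 mutant (red) libraries, with the symbol shape giving the replicate and the black bar the group mean. Tnfaip2 and Icam1 show a wide gap between the groups, and M1 (red circles) is the lowest mutant library for 9 of the 10 genes.

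Tnfaip2, also called M-Sec, is induced by tumour necrosis factor and is known for its part in forming thin membrane bridges between cells. It lies on chromosome 12 from 111442469 to 111455018 (plus strand, GRCm38). Its level was 2.27, 1.53 and 2.03 CPM in W1, W2 and W3, and 21.8, 145 and 59.2 CPM in M1, M2 and M3. Every mutant library was far above every wildtype library, and the mutant libraries differed widely among themselves. The means were 1.94 ± 0.376 CPM in wildtype and 75.4 ± 63.2 CPM in mutant (SD, n = 3 each). The log2 fold change of Tnfaip2 was 5.27 ± 0.69 (SE), a 38.6-fold higher level with a 95% interval of 12.8-fold to 116-fold (adjusted p = 0.0032, edgeR). Without M2, the library with the highest Tnfaip2 level, the log2 fold change was 4.38 and the adjusted p 0.0055. The call ended with limma-voom (adjusted p = 0.070) and limma-voom with quality weights (adjusted p = 0.083), while DESeq2 gave an adjusted p of 2.5e-10.

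Icam1 encodes an adhesion molecule of the cell surface that binds integrins of leukocytes, and it is expressed by activated epithelium, endothelium and stromal cells. It lies on chromosome 9 from 21015985 to 21028817 (plus strand). Its level was 1.19, 3.24 and 1.71 CPM in W1, W2 and W3, and 13.3, 31.9 and 17.02 CPM in M1, M2 and M3. As for Tnfaip2, M2 was the highest and M1 the lowest mutant library, and the groups were well apart. Icam1 had a log2 fold change of 3.34 ± 0.48 (SE), a 10.1-fold higher level with a 95% interval of 4.73-fold to 21.6-fold (adjusted p = 0.0046, edgeR). Icam1 passed the test in all 17 alternative fits, with log2 fold changes of 2.89 to 3.83. A gene on the opposite strand overlaps 6.3% of the exon bases of Tnfaip2 and another 11.7% of those of Icam1. Both opposite-strand genes, Gm40578 and Gm47079, had 0 counts in every library, but reads from either strand could not be told apart if strand was not used in counting, so the counts of both members are uncertain to that extent.

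Among the subunit genes, Nfkb1, Nfkb2 and Relb had higher means in mutant corneas and Rela did not. None passed edgeR's test at its main settings with all libraries in. Nfkb1 encodes the precursor of p50 and lies on chromosome 3 from 135584655 to 135691547 (minus strand). Its level was 120, 83.9 and 88.7 CPM in W1, W2 and W3, and 129, 161 and 162 CPM in M1, M2 and M3. The groups of Nfkb1 did not overlap, but W1 lay just below M1. Its log2 fold change was 0.63 ± 0.17 (SE), with an adjusted p of 0.053 (edgeR) just above the threshold. Nfkb1 passed with DESeq2 (adjusted p = 0.0091), limma-voom (0.040), limma-voom with quality weights (0.0050), no composition factors (0.033) and a filter of 1 CPM in 3 libraries (0.049).

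Relb encodes the subunit that partners p52 in the alternative branch of the pathway, and lies on chromosome 7 from 19606217 to 19629438 (minus strand). Its level was 5.22, 6.93 and 4.97 CPM in W1, W2 and W3, and 8.94, 15.6 and 10.4 CPM in M1, M2 and M3. The mutant libraries were all higher, at a log2 fold change of 1.03 ± 0.30 (SE) that missed the threshold (adjusted p = 0.069, edgeR). DESeq2 called it, with an adjusted p of 0.028. Nfkb2, the gene of the p52 precursor, lies on chromosome 19 from 46304320 to 46312385 (plus strand). Its level was 51.5, 22.5 and 27.8 CPM in W1, W2 and W3, and 37.7, 58.3 and 53.2 CPM in M1, M2 and M3. W1 stood within the mutant range, so the groups overlapped, and the log2 fold change was 0.55 ± 0.31 (SE, adjusted p = 0.33, edgeR). Limma-voom with quality weights, which counts outlying libraries less, called Nfkb2 at a log2 fold change of 0.91 (adjusted p = 0.027). Exons of Nfkb2 overlap Psd and AC114539.1 on the opposite strand over 18.1% of their bases, and its counts are uncertain. Psd had 7 to 196 counts per library and AC114539.1 30 to 56, against 397 to 1181 for Nfkb2.

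Rela, the gene of the main activating subunit p65, lies on chromosome 19 from 5637483 to 5648130 (plus strand). Its level was 89.3, 65.0 and 57.8 CPM in W1, W2 and W3, and 70.4, 72.7 and 66.0 CPM in M1, M2 and M3. The mutant libraries all fell inside the wildtype range. The log2 fold change of Rela was -0.02 ± 0.17 (SE), with a 95% interval of -0.41 to 0.37. Its sign changed in 5 of the 17 alternative fits, in which it ranged up to 0.18.

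Nfkbia encodes the inhibitor IkB-alpha, whose resynthesis ends an NF-kB response, and lies on chromosome 12 from 55489410 to 55492647 (minus strand). Its level was 28.4, 25.7 and 24.0 CPM in W1, W2 and W3, and 31.5, 50.8 and 36.3 CPM in M1, M2 and M3. The groups did not overlap, although M1 lay close to W1. Nfkbia had a log2 fold change of 0.60 ± 0.20 (SE, adjusted p = 0.099, edgeR). Nfkbiz encodes IkB-zeta, a nuclear protein that works with p50 to turn on a second set of target genes in epithelia, and lies on chromosome 16 from 55811375 to 55838899 (minus strand). Its level was 286, 165 and 169 CPM in W1, W2 and W3, and 235, 384 and 304 CPM in M1, M2 and M3. W1 was above M1, and the log2 fold change was 0.57 ± 0.26 (SE, adjusted p = 0.22, edgeR). With quality weights limma-voom called Nfkbiz at 0.83 (adjusted p = 0.022).

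Bcl3 encodes another nuclear IkB protein, which binds dimers of p50 or p52, and lies on chromosome 7 from 19808462 to 19822770 (minus strand). Its level was 40.3, 17.4 and 11.0 CPM in W1, W2 and W3, and 32.9, 92.4 and 59.7 CPM in M1, M2 and M3. The spread was wide in both groups, with W1 above M1, and the log2 fold change of 1.43 ± 0.51 (SE) had an adjusted p of 0.13 (edgeR). With quality weights limma-voom called Bcl3 at 2.02 (adjusted p = 0.018). A gene on the opposite strand, Gm16175, overlaps 6.51% of the exon bases of Bcl3 and had at most 2 counts in a library. Tnfaip3 encodes A20, a ubiquitin-editing enzyme that shuts down the signal, and lies on chromosome 10 from 19000910 to 19015657 (minus strand). Its level was 32.4, 14.7 and 27.7 CPM in W1, W2 and W3, and 19.9, 54.8 and 70.5 CPM in M1, M2 and M3. M1 lay below W1 and W3 while M2 and M3 lay above all wildtype libraries. Tnfaip3 had a log2 fold change of 0.96 ± 0.45 (SE, adjusted p = 0.25, edgeR).

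The members shared an order of libraries. Within the mutant group M1 was the lowest library for 9 members and M2 the highest for 8. Within the wildtype group W1 was the highest for 8 members, the exceptions being Relb and Icam1. The share of all genes with the same order was not counted, so the order is not shown to be particular to the members. W1 also stood apart from the other libraries on the first principal component of all genes, at 122 where the others lay between -67.2 and 23.2, a component with 50.0% of the variance. M1 was the only library with Xist RNA (1140 CPM, at most 0.681 CPM elsewhere) and with 0 Y-linked counts. Y-linked genes summed to 131 to 145 CPM in the other libraries. By these transcripts M1 is female and the others male, so sex is not balanced between the genotypes. The part of this difference in the member values was not tested, and no wildtype library shared it.

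Without W1, 6 members passed the test in place of 2. These were Tnfaip2 and Icam1 with Nfkb1 (log2 fold change 0.80, adjusted p = 0.0065), Nfkb2 (0.98, adjusted p = 0.020), Nfkbiz (0.88, adjusted p = 0.020) and Bcl3 (2.12, adjusted p = 0.014), all by edgeR. Without M1 and W1 together, Nfkbia (0.79, adjusted p = 0.044) and Tnfaip3 (1.55, adjusted p = 0.016) passed as well, which made 8. Calls over all genes rose too. With all libraries 850 of 15209 genes were called higher and 679 lower. Without W1 the counts were 1227 and 847 of 16046, and without M1 and W1 together 1026 and 754 of 15563. M1 was the lowest mutant library for 9 members and W1 the highest wildtype library for 8. Leaving them out therefore widens the difference for most members, and these larger counts are not separate evidence of it. Relb (adjusted p = 0.082) and Rela (adjusted p = 0.50) did not pass with these libraries left out. In each of the 5 fits without M1, M2, M3, W2 or W3 alone, Tnfaip2 and Icam1 were the members that passed.

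**Figure D2:**
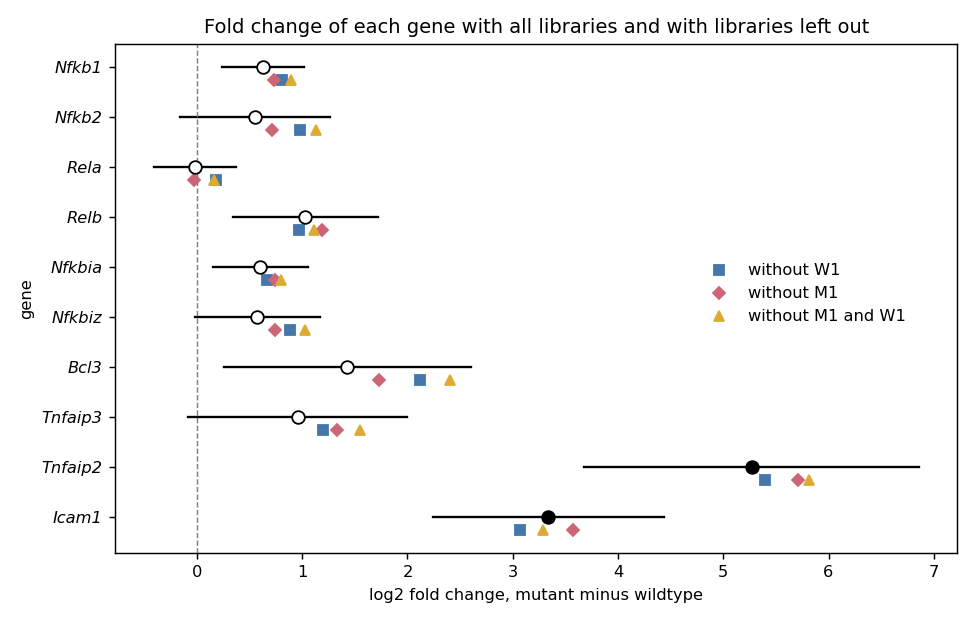
Log2 fold change (mutant minus wildtype) of each gene with all 6 libraries (circles, filled where the adjusted p is below 0.05) and its 95% interval (bars), with the value without W1 (squares), without M1 (diamonds) and without both (triangles) beneath. Leaving out both moved Bcl3 from 1.43 to 2.41 and left Rela near 0, at 0.16.

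Marker genes of several cell types moved with genotype beside these members, and their part in the member values was not tested. In bulk RNA, more cells of a type and more RNA per cell cannot be told apart. Over all tested genes 5.59% were called higher and 4.46% lower, and these shares stand beside the count of each marker list. Of 15 tested leukocyte markers of 20 listed, 9 rose and 0 fell. Of the 15, 10 had a wildtype mean under 1 CPM and passed the low-count filter largely through the mutant libraries. The summed level of the 20 was 216 to 269 CPM in mutant and 48.4 to 73.7 CPM in wildtype libraries. Itgam, Cd74, Cd68 and Csf1r were the most abundant, and Cd68 was 13.8 ± 1.78 CPM in mutant and 12.6 ± 4.71 CPM in wildtype (SD, n = 3). Itgam shares most of its exon bases with Gm49368 on its own strand, so its counts are uncertain. Within the mutant group the leukocyte sum was 216, 239 and 269 CPM in M1, M2 and M3.

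Of 10 blood vessel endothelial markers 0 passed the test (2 at an unadjusted p of 0.05, 2 with DESeq2 and 1 with limma-voom). Their sum was 64.5 to 156 CPM in mutant libraries and 51.1 and 54.3 CPM in W2 and W3, but 2.78 CPM in W1. Of 11 tested conjunctival and goblet cell markers 5 rose and Cldn4 fell, and their sum was 16543 to 18052 CPM in mutant and 5358 to 8786 CPM in wildtype. Of 10 keratocyte and stromal markers 6 rose and Aldh1a1 fell, with sums of 1234 to 5184 CPM in mutant and 463 to 714 CPM in wildtype. The labels give the tissue as cornea, and of 9 tested markers of its epithelium 3 fell and Krt14 rose. Krt12, Krt5, Aldh3a1 and Tkt had the highest means of that list, and its summed level was 19470 to 26033 CPM in mutant and 37957 to 52164 CPM in wildtype. An opposite-strand gene, A830036E02Rik, overlaps 54.4% of the exon bases of Krt12, so its counts and this sum are uncertain. Pax6 itself was 356 to 454 CPM in mutant and 746 to 849 CPM in wildtype libraries.

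**Figure D3:**
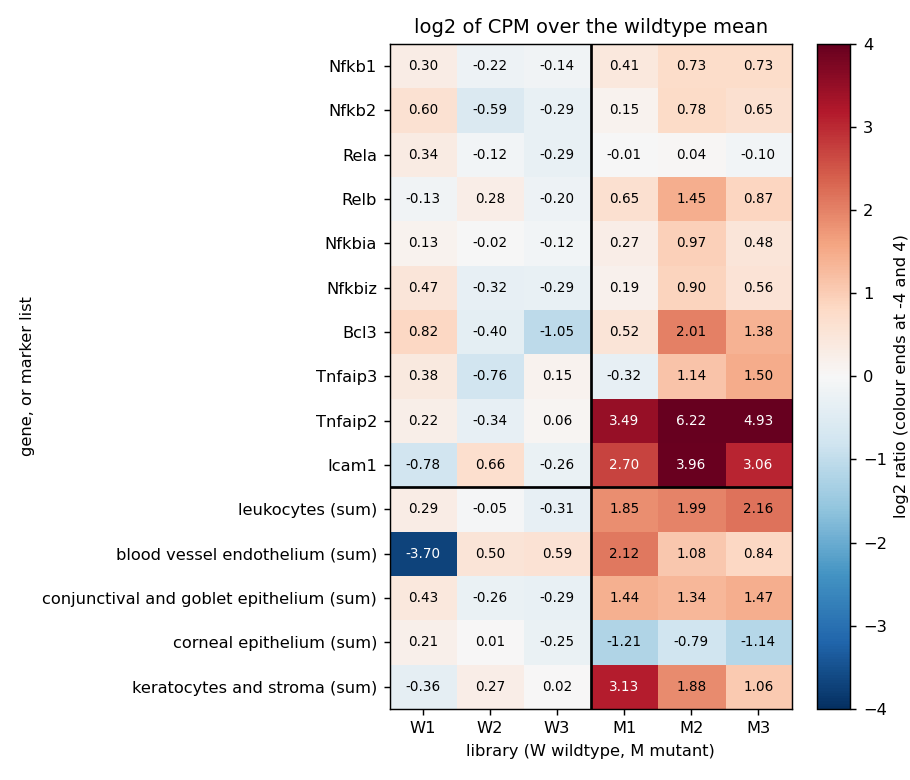
Log2 of the CPM of each library over the wildtype mean, for each of the 10 genes (upper block) and for the summed CPM of 5 marker lists (lower block), with libraries in columns and the value printed in each cell. Tnfaip2 and Icam1 are high in all mutant libraries, Bcl3 and Tnfaip3 mainly in M2 and M3, and the endothelial sum is low in W1.

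Levels were compared between members per kilobase of annotated exons (RPKM, the CPM above divided by the length of all exons of a gene). In wildtype corneas Nfkbiz was highest at 41.2 ± 13.7 RPKM, followed by Rela at 23.0 ± 5.38 and Nfkbia at 16.2 ± 1.39 (SD, n = 3). Bcl3, Nfkb1 and Nfkb2 followed at 9.25, 8.08 and 7.41 RPKM, and the ranges of Nfkbia and these 3 overlapped from neighbour to neighbour. Tnfaip3 stood at 3.45 RPKM and Relb at 1.47. Icam1 at 0.469 and Tnfaip2 at 0.390 were lowest and overlapped each other.

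In mutant corneas Nfkbiz was again highest, at 61.3 ± 14.9 RPKM (SD, n = 3), and no other member's range reached it. Bcl3, Nfkbia and Rela came next at 24.9, 24.6 and 22.7 RPKM. Tnfaip2 moved from the last to the fifth place, at 15.1 ± 12.7 RPKM. From Bcl3 down to Relb, which was last at 3.00 RPKM, each member overlapped its neighbour, so this order is not firm. Exon length covers the exons of all annotated transcripts.

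The rest of the pathway was read from 6 lists of 122 further genes, chosen from general knowledge with earlier results of these data known. Of these, 95 were tested, and 12 rose and 6 fell, against 5.59% and 4.46% of all genes. The same shares of all genes stand beside the count of each of the 6 lists below. Their median log2 fold change was 0.22, and 13 of the 95 had a wildtype mean under 1 CPM, with most of the counts of each in the mutant libraries. The number that rose was 4, 1, 5 and 5 without M2, M3, W2 and W3, and 24 without W1. Over all genes the number that rose, 850 with all libraries, was 455, 340, 574 and 542 without M2, M3, W2 and W3. It was 1227 of 16046 without W1. The number of pathway genes that fell was 2 without M1 or M3, where 380 and 271 of all genes fell, against 679 with all libraries. DESeq2 called 22 of the 95 higher and 7 lower, and 1325 and 1033 of all 15209 genes.

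Of 16 tested receptor genes 4 rose and 0 fell (DESeq2 and limma-voom also 0 lower, and 0 at an unadjusted p of 0.05), with a list median log2 fold change of 0.69. They were Il1r1, Il1rap, Tlr3 and Nod2. Il1r1 and its partner chain Il1rap, which together receive interleukin-1, had log2 fold changes of 1.60 ± 0.33 and 0.80 ± 0.19 (SE). Il1r1 was 9.99, 23.7 and 18.8 CPM in W1, W2 and W3, and 69.6, 40.3 and 49.3 CPM in M1, M2 and M3, so that here M1 was the highest library. Tlr3, the sensor of double-stranded RNA, rose by 0.73 ± 0.17. Nod2, a sensor of bacterial cell wall, rose by 3.05 ± 0.70, from 6.18, 0.852 and 1.55 CPM in W1, W2 and W3 to 15.8, 37.7 and 17.7 CPM in M1, M2 and M3. Nod2 was highest in M2 and its wildtype level was highest in W1, without which its log2 fold change was 4.29. Tnfrsf1a, the main receptor of tumour necrosis factor, was 83.3 CPM in mutant and 78.4 CPM in wildtype on average.

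The receptor calls were sensitive to single libraries. The adjusted p of Il1r1 (edgeR) was 0.075, 0.073 and 0.053 without M1, M3 and W3. That of Nod2 was 0.067, 0.12, 0.082, 0.070 and 0.082 without M1, M2, M3, W2 and W3. For Il1rap and Tlr3 the calls ended without any of the same 5 libraries, at 0.084 to 0.14 and 0.065 to 0.17. The call of Il1rap also ended without a low-count filter (0.066) and without M1 and W1 together (0.062). Opposite-strand genes overlap 4.86% of the exon bases of Il1rap and 7.32% of those of Tlr3, and their counts are uncertain.

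Of 4 tested ligand genes Ltb rose, the lymphotoxin that signals to the alternative branch. It had 1 count in all wildtype libraries together and 99 in the mutant libraries, a ratio of 94.4 with an exact interval of 16.6 to 3765 that covers counting error only. Its level was 0.612, 2.28 and 2.16 CPM in M1, M2 and M3. Without M2, M3 or W2 the adjusted p of Ltb was 0.078, 0.088 and 0.061 (edgeR), and without W3, the library with the wildtype count, its size has no wildtype count to rest on. Tnf, the founding ligand, was 5.84, 3.18 and 4.39 CPM in W1, W2 and W3, and 1.10, 9.27 and 7.20 CPM in M1, M2 and M3. M1 was below every wildtype library and the others above, and Tnf did not pass (adjusted p = 0.78, edgeR).

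Of 32 tested adaptor and kinase genes 4 fell (12.5%, against 4.46% of all genes) and 2 rose. The share that rose, 6.25%, was near the 5.59% of all genes, and the list median of 0.11 was near that of all genes. Birc3, a ubiquitin ligase of the receptor complex and itself a target, rose from 17.9 ± 4.21 to 53.0 ± 12.9 CPM (SD, n = 3), and Malt1, a protease of the CARD signalling complex, from 25.5 ± 1.04 to 41.8 ± 1.14 CPM. Card14, the CARD scaffold of keratinocytes, fell from 45.9 ± 10.6 to 16.4 ± 2.89 CPM, and Irak2, a kinase of interleukin-1 and Toll-like receptor signalling, from 93.2 ± 8.18 to 48.8 ± 7.74 CPM. Birc3, Card14 and Irak2 passed in all 17 alternative settings. Malt1 had an adjusted p of 0.059 without M3 (edgeR). Traf5, at 39.5 ± 10.1 CPM in wildtype and 19.5 ± 3.99 in mutant, and Card10, at 50.2 ± 10.7 and 27.7 ± 3.72 (SD, n = 3), also fell. Their naming completes the count of 4 and was decided once their values were known. The core kinases did not pass, with Chuk at 32.04 CPM in mutant and 35.3 CPM in wildtype and Ikbkb at 65.2 and 60.3 CPM on average. The exons of Card14 overlap Sgsh on the opposite strand over 20.7% of their bases, and those of Irak2 Gm43963 over 4.44%, so both counts are uncertain.

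Rel, the gene of c-Rel and the remaining subunit, was the member that rose among 6 other subunit and inhibitor genes. Its level was 38.4, 37.6 and 41.5 CPM in W1, W2 and W3, and 53.9, 79.9 and 70.3 CPM in M1, M2 and M3. The groups of Rel were clearly apart, and its log2 fold change was 0.80 ± 0.16 (SE, adjusted p = 0.019, edgeR). Without M2, M3, W2 or W3 its adjusted p was 0.077, 0.094, 0.069 and 0.055. Among 18 inhibitory regulators 2 rose and 0 fell (1 lower at an unadjusted p of 0.05, with DESeq2 and with limma-voom). Pdlim2, a nuclear ligase that promotes the breakdown of p65, rose from 22.7 ± 4.10 to 46.6 ± 4.81 CPM (SD, n = 3). Tnip3, a binding partner of A20, was 0.794, 0.681 and 0.267 CPM in W1, W2 and W3, and 1.04, 6.88 and 9.45 CPM in M1, M2 and M3. Its log2 fold change was 3.31 ± 0.84 (SE), and M1 was close to wildtype. The adjusted p of Pdlim2 was 0.054 without M3, and that of Tnip3 was 0.13, 0.18, 0.11 and 0.11 without M2, M3, W2 and W3 and 0.24 with limma-voom (the others by edgeR).

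Of the other classical targets, 19 were tested of 35 listed. Of these, 2 rose and 2 fell, with a list median log2 fold change of 0.26. Lcn2, the iron-binding lipocalin, was 26.4, 6.81 and 4.12 CPM in W1, W2 and W3, and 39.6, 213 and 233 CPM in M1, M2 and M3. The order of libraries was again that of most members, with M1 lowest among mutant and W1 highest among wildtype libraries. Lcn2 rose by 3.70 ± 0.84 on the log2 scale (± SE), and by 4.89 without W1. Csf1, the macrophage growth factor, rose by 1.25 ± 0.32. Plau, the urokinase protease, fell from 10.3 ± 0.608 to 3.96 ± 0.943 CPM (SD, n = 3) and the cell cycle gene Ccnd1 from 281 ± 55.6 to 157 ± 16.4 CPM. Irf1, Bcl2l1 and Cflar, each well expressed, differed by log2 fold changes of -0.03, 0.17 and 0.34 and did not pass.

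The edgeR adjusted p of Lcn2 was 0.096, 0.11, 0.10 and 0.067 without M2, M3, W2 and W3. It was 0.15, 0.12, 0.16, 0.074 and 0.068 for Csf1 without M1, M2, M3, W2 and W3, and the call of Csf1 also ended with RLE scaling (0.052), with mitochondrial and small RNA genes removed (0.0503) and without M1 and W1 together (0.084). For Plau it was 0.071, 0.092, 0.061 and 0.051 without M1, M3, W2 and W3 and 0.057 without M1 and W1 together, and for Ccnd1 0.079, 0.097 and 0.058 without M1, M3 and W2. The exons of Ccnd1 overlap those of an opposite-strand gene over 23.4% of their bases, and its counts are uncertain.

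**Figure D4:**
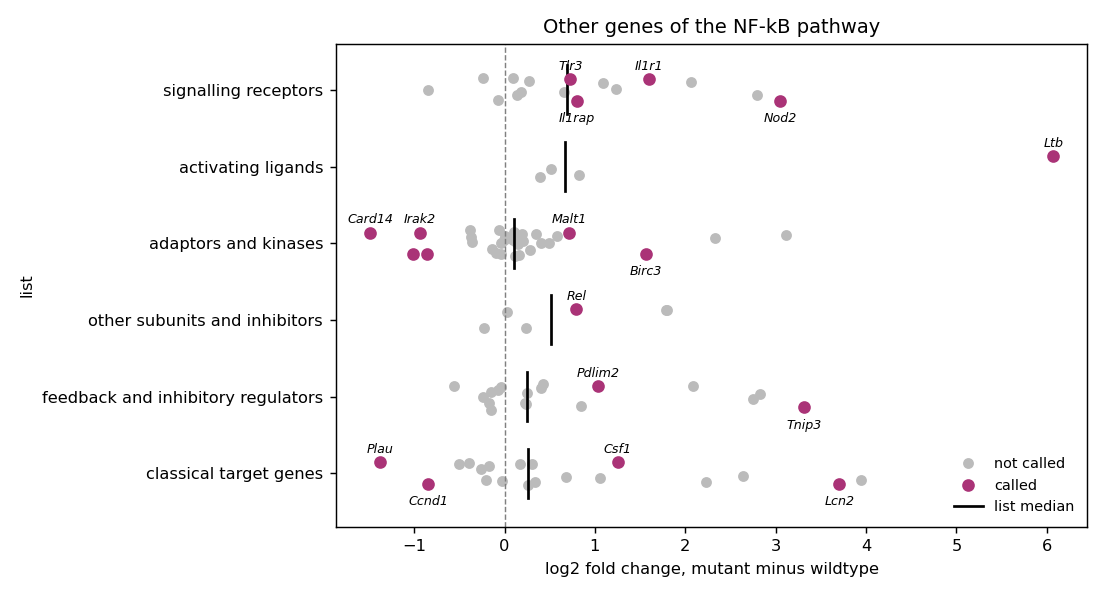
Log2 fold change (mutant minus wildtype) of the tested genes of 6 further lists of the pathway, with genes that passed the test in purple, the others in grey and the list median as a black bar; vertical spread within a list is for legibility. Genes chosen by rule are labelled, and the 2 unlabelled purple points are Traf5 and Card10.

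The genes most like the 4 members with the smallest p were found by Pearson's r of log2 CPM over the 6 libraries. Such an r reflects the genotype groups that all the genes share, and it is given as a description. It compares the pattern over libraries and not the size of a change. Gsap (r = 0.998) and Lrba (r = 0.995) were nearest to Tnfaip2, and Lcp2 (r = 0.994) and Mapkapk2 (r = 0.994) to Icam1. The log2 fold change of Lrba was 0.43, against 5.27 for Tnfaip2, and that of Mapkapk2 0.46, against 3.34 for Icam1. Ptafr (r = 0.997) and Il1f9 (r = 0.996), the latter encoding an interleukin-1 family ligand, were nearest to Nfkb1. Lcp2 (0, 0.341 and 0.0535 CPM in W1, W2 and W3) and Ptafr (0.567, 0.0568 and 0.0535 CPM) were very low in wildtype, where their r rests on few counts. Il1f9 was 24.97, 8.40 and 8.02 CPM in W1, W2 and W3, and 33.7, 76.6 and 83.3 CPM in M1, M2 and M3, and so repeated the high W1 and low M1 of Nfkb1. Syt16 (r = 0.999) and Siah2 (r = 0.993) were nearest to Relb.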

How the data were processed

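The labels' protocols name a Promega RNA isolation system and a SMARTer stranded pico-input library kit with paired-end reads. Per the submitters' processing notes, the tools were HTSeq, HISAT2, Trim Galore, SAMtools and edgeR and the build GRCm38; the sources used here give no versions, no settings and no word on strand. Each deposited file holds raw counts per Ensembl gene, not normalized. The 5 summary lines, among them 16.3% of all pairs in no feature, were left out. Of 55421 IDs, 55240 matched GENCODE M21 on the same build, which gave names, positions and exons. Promoters came from RefSeq (GRCm38.p6).

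Counts were tested with edgeR 4.0.16 in R 4.3.3 (filterByExpr with minimum count 10 and minimum total 15, TMM scaling, quasi-likelihood test, Benjamini-Hochberg adjustment over 15209 genes at 0.05), with genotype as the only term and all 6 libraries. The SE is the log2 fold change over the square root of F, and the 95% interval comes from it. Between libraries of a genotype the chi-square per gene was 19.4 to 60.1, where sampling noise alone gives about 1, so all were kept as separate replicates; whether each is a separate animal is not stated beyond the design's word for them, and p-values measure the spread between these libraries. Counting intervals cover counting error only. The scripts were tested on simulated data.

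The members and lists were chosen with earlier results of these data known. Named genes are all members, up to 4 called genes with the smallest p of each pathway list, any called gene that moved against most of its list, the 4 most abundant genes of each marker list, and the 2 genes most like each of the 4 members with the smallest p; others are named for a count or a role. Other settings tried were scaling by RLE, by the upper quartile or without composition factors; DESeq2 1.42.0; limma-voom (limma 3.58.1), also with quality weights; testing every gene, or those at 1 CPM or more in 3 libraries; omitting mitochondrial and small RNA genes; a threshold of 0.01; and leaving out each library, or M1 and W1 together. Likeness used log2 CPM with a prior count of 2.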

Additional observations from a re-analysis of the deposited data

How the results depend on the processing

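The number of members called higher was 2 and stayed within 1.5 times of it in most alternatives. It was 4 with DESeq2, 5 with limma-voom with quality weights, 9 without a low-count filter and 8 without M1 and W1 together, and ranged from 2 to 6 with 1 library left out. Without the filter edgeR estimated infinite prior degrees of freedom, against 4.12 with it. The spread of a gene is then taken from all genes of like level. The p-values of that fit therefore do not use a gene's own spread between libraries. The 9 members called there were all but Rela, while the wider pathway gene Il1rap lost its call. No member was called lower in any of the 17 alternatives. The number of wider pathway genes called higher, 12, was 22 with DESeq2, 23 with quality weights, 26 without a filter, 2 at an adjusted p of 0.01 and 25 without M1 and W1, and ranged from 1 to 24 with 1 library left out. The number called lower, 6, was 2 at an adjusted p of 0.01 and ranged from 2 to 7 with 1 library left out. The log2 fold change of Rela, -0.02, was 0.0037 with limma-voom, 0.13 with quality weights and 0.16 without M1 and W1, and ranged from -0.17 to 0.18 with 1 library left out (0.0095 without M3). The cause of these differences was not tested, beyond the fewer libraries of the fits that leave some out. Over all genes, 850 were called higher and 679 lower. These counts were 1325 and 1033 with DESeq2, 1202 and 983 with quality weights and 1588 and 1137 without a filter. They were 307 and 261 at an adjusted p of 0.01, and 1026 and 754 without M1 and W1. With 1 library left out these counts ranged from 340 to 1227 and from 271 to 847. The largest shift of the median gene under another scaling was -0.0355 (log2), with upper-quartile factors. No paired analysis was possible because the labels give the genotypes no shared replicate numbers (samples 19, 20 and 21 against C, C7 and C8; the numbers 1 to 3 used here only name libraries in order of deposit). With 3 libraries a group, Ltb, Tnip3 and other genes near or under 1 CPM in wildtype rest on few counts.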

Other observations

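Of the 122 further pathway genes, 27 were too low to be tested, and 10 of these had no count in any wildtype library. Their summed level was 1.65 to 2.41 CPM in the wildtype libraries and 5.20, 42.8 and 16.7 CPM in M1, M2 and M3. Among the mutant libraries M2 was the highest for 16 of the 27 genes, M3 for 9 and M1 for 2. Cxcl5, a chemokine that attracts neutrophils, had 0 counts in M1, 293 in M2 and 103 in M3, and 3 in all wildtype libraries together. Csf3, the granulocyte growth factor, had 1, 55 and 16 counts in M1, M2 and M3, and Il1b 4, 87 and 47. These genes were chosen for mention after their values were seen. Zc3h12a, an RNase that destroys cytokine transcripts, was tested and did not pass (adjusted p = 0.094, edgeR). It was 58.8, 14.9 and 14.2 CPM in W1, W2 and W3, and 46.9, 200.2 and 125 CPM in M1, M2 and M3, with W1 above M1 as for several members.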
